A study of Rattus norvegicus with 5 samples.

Results

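The genes described here are the 10 enzymes that lead from membrane phospholipid to the prostanoids and on to their removal: Pla2g4a, Ptgs1, Ptgs2, Ptges, Ptges2, Ptges3, Ptgis, Tbxas1, Ptgds and Hpgd. They were found by gene symbol, and all 10 were present, on 1 row each, among 16881 symbols. The data are 5 RNA-seq libraries of vascular smooth muscle cells from rat, grown in DMEM/F12 medium; in vessels these cells contract to set the diameter. Each library is 1 condition: cells kept for 24 h in hypoxia after pretreatment with In-Cl (0.1 µM), with DPN (0.1 µM) or with E2 (10 nM), cells kept for 24 h in hypoxia alone, and a control. All 3 compounds are estrogen receptor agonists by the series' own design text. E2 is estradiol, the natural hormone, DPN is diarylpropionitrile, a ligand with a preference for the beta form of the receptor, and the series title spells In-Cl out as Indazole-Cl. The vessel, the number of animals or cultures, the oxygen level, whether the control was normoxic, and any vehicle are not given in the labels. With 1 library per condition no difference has a replicate check and no p-value is given, so each statement compares libraries.

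Prostanoid synthesis begins when cytosolic phospholipase A2 (Pla2g4a) frees arachidonic acid from membranes. The cyclooxygenases COX-1 (Ptgs1, usually constitutive) and COX-2 (Ptgs2, inducible) turn it into an unstable endoperoxide, which terminal synthases convert into prostaglandin E2, prostacyclin, thromboxane or prostaglandin D2. In the vessel wall prostacyclin relaxes smooth muscle and restrains platelets, thromboxane constricts, and prostaglandin E2 acts through several receptors with opposite effects.

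Values are adjusted read counts on a linear scale, obtained by taking the deposited log2 values as log2(count + 1). That form was inferred from the values and is not stated by a source at hand. One sequenced read was worth between 0.8435 (control) and 1.10 (E2) of these units, and the adjusted totals per library ran from 20663687 (control) to 22837695 (hypoxia). Intervals are 95% intervals of counting error, exact Poisson for a level and Clopper-Pearson for a difference; they treat each read as a separate molecule, which amplified reads need not be, and leave out variation between cultures. Differences are on the log2(count + 1) scale, while their intervals are of the plain read ratio with nothing added, and the 2 scales part at low reads. Intervals of a change in the ratio of 2 members are normal approximations. A gene was called higher or lower at a 2-fold difference. The hypoxia labels were checked on 8 genes known to respond to low oxygen, of which 7 exceeded the control at least 2-fold in hypoxia (Pgk1 89897 against 9403). Among the 10706 symbols with a mean of at least 10, 4.25% did so. The exception was Adm, with 992 in hypoxia and 739 in the control (0.425). Of 9 smooth muscle markers Acta2 was the highest, between 108399 and 152452, while Myh11, Myocd and Actg2 were between 136 and 326. Des had 31.9 in hypoxia and 4.33 in the control (2.63), and Smtn 2206 in hypoxia and 4374 in the control (-0.99). Of 9 endothelial markers 4 were at 0 in every library (Cdh5, Kdr, Cldn5 and Emcn). Others were not: Tek had 244 to 439 units, Nos3 29 to 58 reads, Pecam1 4 to 18 reads, and Tie1 and Vwf at most 5 reads. Of 4 platelet markers found 3 were at 0 (Pf4, Gp9 and Ppbp).

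Among the members, the reads of terminal synthases concentrated on 2 genes. Ptges3, whose protein also serves as a co-chaperone of heat shock protein 90, had 4341 units with In-Cl, 4952 with DPN, 4531 with E2, 4655 in hypoxia and 5704 in the control. Ptgis, prostacyclin synthase, had 1616 with In-Cl, 1738 with DPN, 1833 with E2, 1980.0 in hypoxia and 1754 in the control. By mean level they stood at percentiles 95.5 (Ptges3) and 86.1 (Ptgis) of the detected symbols, and neither differed by as much as 1.5-fold between any 2 libraries (highest over lowest 1.31 for Ptges3 and 1.23 for Ptgis). Ptges2, the other constitutive prostaglandin E synthase, had 214 with In-Cl, 239 with DPN, 302 with E2, 279.7 in hypoxia and 310.5 in the control. The inducible prostaglandin E synthase, Ptges, is described with COX-2.

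The thromboxane, prostaglandin D and degradation steps were close to or below the detection limit. Tbxas1, thromboxane synthase, rested on 2 reads with In-Cl, 4 with DPN, 4 with E2, 6 in hypoxia and 0 in the control. Set against a floor of 3 reads in the control library, the Tbxas1 level in hypoxia was 2.43-fold higher. The counting interval of 6 reads against 0 reaches down to a log2 difference of 0.53. Ptgds, lipocalin-type prostaglandin D synthase, had 0 reads in all 5 libraries, and 3 reads of the synthase total would be between 0.0324% and 0.0485%. Hpgds, the haematopoietic form of that enzyme, was also at 0 throughout. Hpgd, which starts the breakdown of prostaglandins, had 4, 4 and 2 reads with In-Cl, DPN and E2, 0 in hypoxia and 1 in the control. These 3 members had a mean under 10 units and are left out of the counts below, which cover the other 7 members and the 10706 symbols with a mean of at least 10.

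Of the reads of all 6 terminal synthases, Ptgis held 25.5% with In-Cl, 24.5% with DPN, 26.9% with E2, 28.0% in hypoxia (27.0 to 29.1) and 22.5% in the control (21.6 to 23.4). With Ptges3 set aside, Ptgis held 80.7% with In-Cl, 80.6% with DPN, 80.4% with E2, 82.0% in hypoxia and 83.7% in the control. Ptges held 8.53% of the same reads with In-Cl, 8.11% with DPN, 6.13% with E2, 6.15% in hypoxia and 1.53% in the control. Thus, among these 6, the prostacyclin synthase had most reads apart from Ptges3 in each library, and the share of Ptges was higher in the 4 hypoxic libraries. A longer transcript collects more reads per molecule and transcript lengths were not used here, so these are shares of reads and not of RNA molecules. Between Ptgis and Tbxas1 the gap was 1920 reads against 6 in hypoxia. Akr1b1, which can also make prostaglandin F, is not among the 6. It had more reads than Ptges3 in each library (7186 in hypoxia and 13165 in the control).

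**Figure D1:**
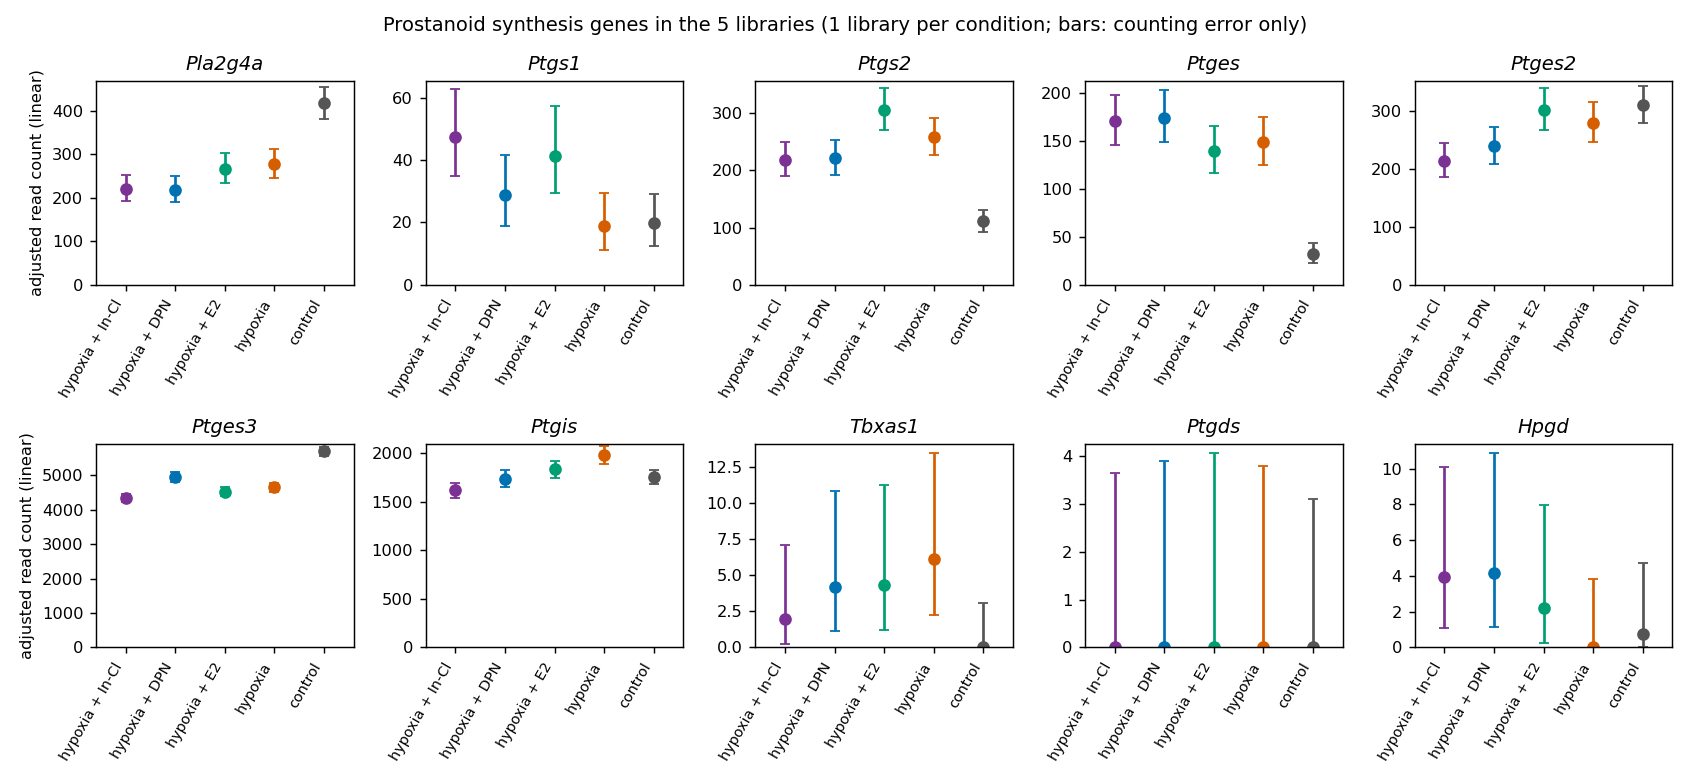
Adjusted read count (linear scale, each panel with its own axis from 0) of the 10 prostanoid synthesis genes in the 5 libraries, 1 library per condition. Points are levels and bars are exact 95% Poisson intervals of counting error. Ptgs2 and Ptges sit lowest in the control, Pla2g4a and Ptges3 highest there, and Tbxas1, Ptgds and Hpgd are at or near 0.

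Hypoxia alone was set against the control, 1 library each, to see which steps of the pathway differ. COX-2 is named in the series title. Ptgs2 had 258 units in hypoxia and 111 in the control. With the compounds it had 218 (In-Cl), 222 (DPN) and 306 (E2), so that the control lay below all 4 hypoxic libraries. The difference was 1.21 (interval 0.91 to 1.54). It was under 2-fold with In-Cl (0.97) or DPN (0.99) in place of hypoxia alone, and 1.46 with E2. Ptges, the inducible synthase that works downstream of COX-2, had 149 units in hypoxia and 32.2 in the control, a difference of 2.17 (interval 1.69 to 2.77). With the compounds Ptges had 171 (In-Cl), 175 (DPN) and 139.6 (E2), so that its 4 hypoxic levels were 2.08 to 2.40 above the control on the log2 scale. Here and below, the 4 hypoxic libraries are set against the same control library, so their agreement is not 4 separate checks.

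Ptgs2 and Ptges were the 2 of 7 members at least 2-fold higher in hypoxia, where 4.25% of all symbols tested were; 0 members were at least 2-fold lower, where 1.15% of all symbols were. Among the 10706 symbols, 117 were as much higher as Ptges or more and 334 as much as Ptgs2 or more. Among 1325 symbols within 1.5-fold of the mean level of Ptges, 16 differed upward at least as far. Among 1794 symbols of like level to Ptgs2, 33 did so.

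Pla2g4a, the first enzyme of the route, went the other way. It had 277 units in hypoxia and 417 in the control, a difference of -0.59 (interval -0.81 to -0.38), and 221, 219 and 266 with In-Cl, DPN and E2. All 4 hypoxic libraries lay below the control. A difference this far down was shared by 638 symbols, or 5.96%. Of the constitutive synthases, Ptges3 was lower in hypoxia by -0.29 (interval -0.35 to -0.24), and Ptges2 differed by -0.15 with an interval that included 0 (-0.38 to 0.08). Ptgis stood slightly above the control in hypoxia (0.18, interval 0.08 to 0.27), but with In-Cl in place of hypoxia alone it was lower (-0.12), and with DPN it was at -0.01. Ptgs1 had 18.7 units in hypoxia and 19.7 in the control, on 18 and 23 reads, and a difference of -0.07 with a wide interval (-1.04 to 0.89).

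Counting intervals excluded 0 for 5 of the 7 members in hypoxia against control (3 above, 2 below), beside 57.6% of all symbols. For 5 of 7 members the 4 hypoxic libraries all fell on the same side of the control (Pla2g4a, Ptgs2, Ptges, Ptges2 and Ptges3), beside 68.3% of all symbols, and these shares are near the background. The median difference was -0.07 over the members and -0.03 over all symbols. Markers of other cells also differed between these libraries: the epithelial keratin Krt8 had 530.5 units in hypoxia and 208 in the control, and the endothelial markers summed to 428 in hypoxia and 297 in the control, of which Tek gave 370 and 244, while Cdh5 and Kdr were at 0. The 9 leukocyte markers summed to 221 in both, with 3 at 0, but among them Csf1r had 34.0 units in hypoxia and 14.6 in the control (1.16, interval 0.36 to 2.18) and Cd14, the highest, 157 and 185. Of 5 fibroblast markers Lum was 2-fold lower in hypoxia (591 against 1214) and Col1a1, nearly all of their summed level, had 284288 in hypoxia and 227577 in the control. Of the other epithelial markers, Epcam had 24 reads in hypoxia and 8 in the control and Cdh1 8 and 3. Krt18 went the other way, with 1 read in hypoxia and 5 in the control. Their part in the differences of the members was not tested. In cultures read in bulk, fewer cells that make an RNA and less of it per cell cannot be told apart.

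**Figure D2:**
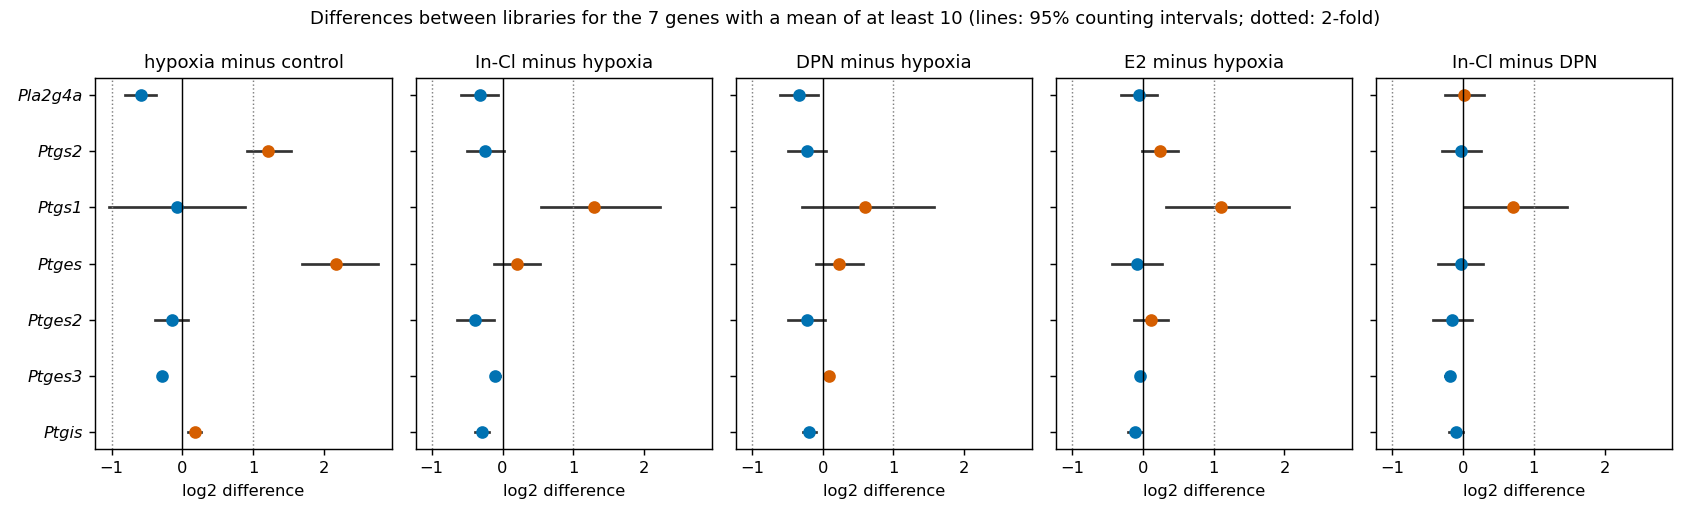
Log2 differences (x axis) of the 7 genes with a mean of at least 10, in 5 comparisons of single libraries. Points are differences, lines are 95% counting intervals and dotted lines mark 2-fold. In hypoxia against control Ptges (2.17) and Ptgs2 (1.21) lie beyond 2-fold, and in In-Cl and E2 against hypoxia only Ptgs1 does (1.30 and 1.11).

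Within a library, the ratio of 2 members does not depend on how the libraries were scaled, and between libraries their transcript lengths cancel. Ptgs2 and Pla2g4a reads were nearly equal in hypoxia, where Ptgs2 made up 48.3% of both (interval 43.9 to 52.7), against 21.0% in the control (17.8 to 24.4). In hypoxia the read ratio of Ptgs2 to Pla2g4a exceeded that of the control 3.51-fold (log2 1.81, interval 1.44 to 2.18). The Ptgs2 share was 49.7% (In-Cl), 50.4% (DPN) and 53.5% (E2) in the treated libraries, so the 4 hypoxic libraries were within 6 points of each other. Ptges made up 34.7% of the Ptges and Ptges2 reads in hypoxia (30.1 to 39.5) and 9.36% in the control (6.71 to 12.6). For Ptges over Ptgis the hypoxia ratio exceeded that of the control 4.09-fold (log2 2.03, interval 1.51 to 2.56): there were 13.3 Ptgis units for each of Ptges in hypoxia and 54.5 in the control.

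The stretches before the starts of 3 of these genes are shown, since Ptgs2 and Ptges were the members higher in hypoxia and Pla2g4a, which was lower, neighbours Ptgs2 on chromosome 13 with 0 protein-coding genes between them in the RefSeq table. Each is 250 bases upstream of the RefSeq start in build GRCr8, 5′ to 3′ on the gene's strand; the deposited values were made on rn6. Capitals mark ACGTG or GCGTG on either strand, the core letters bound by hypoxia-inducible factors. Ptgs2 is read from the plus strand at chr13:64713813-64714062, Ptges from the minus strand at chr3:34586988-34587237 and Pla2g4a from the minus strand at chr13:64572353-64572602.
Ptgs2: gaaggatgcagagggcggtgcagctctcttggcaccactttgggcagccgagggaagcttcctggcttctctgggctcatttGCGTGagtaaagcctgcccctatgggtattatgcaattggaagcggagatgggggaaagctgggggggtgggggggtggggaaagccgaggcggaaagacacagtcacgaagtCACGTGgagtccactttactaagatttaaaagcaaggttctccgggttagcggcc
Ptges: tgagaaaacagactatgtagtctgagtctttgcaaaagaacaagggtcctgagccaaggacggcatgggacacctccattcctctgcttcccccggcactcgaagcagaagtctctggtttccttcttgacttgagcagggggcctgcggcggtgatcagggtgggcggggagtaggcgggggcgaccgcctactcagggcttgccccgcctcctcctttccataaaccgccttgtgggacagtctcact
Pla2g4a: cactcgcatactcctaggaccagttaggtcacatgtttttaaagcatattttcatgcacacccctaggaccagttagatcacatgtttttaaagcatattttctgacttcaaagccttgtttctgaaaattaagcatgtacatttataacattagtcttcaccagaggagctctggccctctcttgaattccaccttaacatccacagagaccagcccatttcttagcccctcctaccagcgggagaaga

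Ptgs2 held GCGTG from 168 to 164 bases before its start and ACGTG on both strands between 55 and 50 bases before it, where the 2 matches overlap as the palindrome CACGTG. The printed stretches of Ptges and Pla2g4a held neither. Of the 8 members found in the promoter table, 5 held ACGTG or GCGTG (Ptgs1, Ptgs2, Ptges3, Ptgds and Hpgd), as did 36.7% of all 33469 promoters of that length; ACGTG alone was in 16.6% and GCGTG in 25.9%. Of these 5, Ptgs2 was the 1 member at least 2-fold higher in hypoxia. Ptgds was not detected, and Hpgd, with a mean under 10 units, was left out of the counts. Ptges2 and Ptgis were not found in the promoter table. GGTCA, the half-site of the estrogen response element, was upstream of Pla2g4a, Ptgs1, Tbxas1 and Ptgds and in 35.4% of all promoters, and the full palindrome GGTCANNNTGACC was in 0.0239% of all promoters and in none of the 8. A match describes letters in this window, not a bound site.

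The genes whose course over the 5 libraries was most like that of Ptgs2 were ranked by the root mean square difference of log2 values centred on their mean, among 9259 symbols with a mean of at least 50. They were Tsc22d1 (0.08), Adgrl3 (0.10), Insig2 (0.11), Vldlr (0.11) and Maff (0.12). Tsc22d1, a transcriptional regulator, had 8932 units with In-Cl, 9508 with DPN, 11120.0 with E2, 10921 in hypoxia and 4588 in the control. Insig2, a sterol-sensing protein of the endoplasmic reticulum, had 348, 367, 412 and 374 in the hypoxic libraries in the same order and 159.6 in the control. Those most like Ptges were P4ha1 (0.11), Kdm4b (0.12), Rab26 (0.12), Ppp1r3c (0.12) and Ccng2 (0.12). P4ha1, a subunit of the collagen prolyl hydroxylase, stood 1.95 above the control in hypoxia, Kdm4b, a histone demethylase, 2.03, and Ppp1r3c, a glycogen-targeting phosphatase subunit, 2.24. The 5 libraries, 4 of them hypoxic, are all that this likeness rests on.

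**Figure D3:**
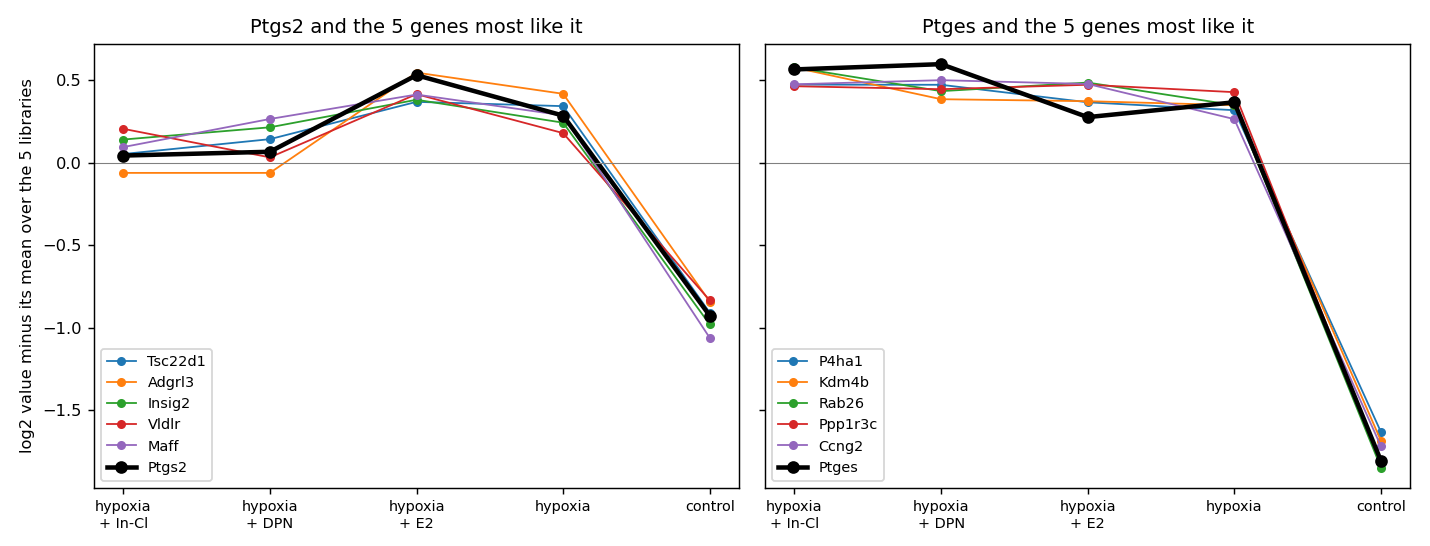
Log2 value minus its mean over the 5 libraries (y axis) for Ptgs2 (left) and Ptges (right), in black, and for the 5 genes most like each. Lines join single libraries only to guide the eye. All 12 curves are lowest in the control, and among the hypoxic libraries the Ptgs2 curve is highest with E2 while that of Ptges is lowest there.

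The In-Cl library was set against hypoxia alone to see which steps differ with that ligand. Ptgs1 was the 1 member of 7 at least 2-fold higher, beside 1.07% of all symbols, and 0 were lower by that much, beside 0.616%. Ptgs1 had 47.4 units with In-Cl (48 reads) and 18.7 in hypoxia (18 reads), a difference of 1.30 (interval 0.54 to 2.22), which 15 of 614 symbols of like level reached. Of the other members, 4 were slightly lower with In-Cl than in hypoxia: Ptges2 by -0.38 (interval -0.65 to -0.12), Pla2g4a by -0.32 (-0.58 to -0.06), Ptgis by -0.29 (-0.39 to -0.20) and Ptges3 by -0.10 (-0.16 to -0.04). Intervals excluded 0 for 5 of 7 members, beside 42.7% of all symbols, and the median was -0.24 over the members and 0.00 over all symbols. Ptgs2 (218 with In-Cl, 258 in hypoxia) and Ptges (171 and 149) had intervals that included 0, from -0.51 to 0.03 and from -0.13 to 0.53. The 9 smooth muscle markers had a median difference of -0.39 with In-Cl, from -1.09 for Actg2 to 0.23 for Myocd, with Acta2 at -0.49 and Myh11 at 0.02, and the part of this shift in the members' differences was not tested.

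The DPN library was read against hypoxia alone in the same way. Of 7 members, 0 were at least 2-fold higher, beside 0.635% of all symbols, and 0 were lower, beside 0.785%. Pla2g4a was at 219 with DPN and 277 in hypoxia (-0.34, interval -0.61 to -0.07). Ptgis was at 1738 and 1980.0 (-0.19, interval -0.28 to -0.09), and Ptges3 at 4952 and 4655 (0.09, interval 0.03 to 0.15). These were the 3 members whose interval excluded 0, beside 27.1% of all symbols. Ptgs2 had 222 units with DPN and 258 in hypoxia, and Ptges had 175 with DPN and 149 in hypoxia, with intervals from -0.49 to 0.05 and from -0.10 to 0.57. Ptgs1, with 28.7 units against 18.7, had an interval from -0.29 to 1.57. The smooth muscle markers had a median difference of -0.33 with DPN (Acta2 -0.40, Actg2 -0.50, Myh11 0.01); their part in the members' differences was not tested.

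E2 against hypoxia concerns the natural hormone at 10 nM. Ptgs1 was again the 1 member at least 2-fold higher (0.701% of all symbols were), with 41.5 units with E2 (38 reads) and 18.7 in hypoxia (18 reads), a difference of 1.11 (interval 0.33 to 2.07). None of the 7 was at least 2-fold lower (0.701% of all symbols were). The interval also excluded 0 for Ptgis, at 1833 with E2 and 1980.0 in hypoxia (-0.11, interval -0.21 to -0.02), which makes 2 of 7 members, beside 28.7% of all symbols. Pla2g4a was at 266 with E2 and 277 in hypoxia and Ptges2 at 302 and 279.7, both with intervals that included 0. So did those of Ptgs2, at 306 with E2 and 258 in hypoxia (0.245, interval -0.006 to 0.498), and Ptges, at 139.6 and 149 (-0.09, interval -0.44 to 0.27). The smooth muscle markers had a median difference of -0.07 with E2 (Acta2 -0.09, Actg2 -0.54, Myh11 0.125). Their part in the members' differences was not tested. The In-Cl, DPN and E2 comparisons share the hypoxia library, where Ptgs1 had its lowest level of the 5 libraries, and against the control Ptgs1 was higher by 1.23 with In-Cl (interval 0.54 to 2.07), 0.52 with DPN (-0.30 to 1.43) and 1.04 with E2 (0.32 to 1.92).

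In-Cl and DPN were given at the same dose and time and can be set against each other, 1 pair of compounds compared over 7 members. Ptgs2 had 218 units with In-Cl and 222 with DPN, a difference of -0.02 with an interval from -0.30 to 0.26. Ptges had 171 with In-Cl and 175 with DPN (-0.03, interval -0.35 to 0.28), and Pla2g4a 221 and 219 (0.01, interval -0.26 to 0.30). Ptgs1 was higher with In-Cl (0.71, interval 0.02 to 1.46), Ptges3 lower (-0.19, interval -0.25 to -0.13) and Ptgis lower (-0.10, interval -0.20 to -0.01). Those 3 intervals excluded 0, beside 35.2% of all symbols; 0 members were at least 2-fold higher, beside 0.934% of symbols, or lower, beside 0.56%. The E2 dose was lower, so its values stand beside the others without a comparison: 306 units of Ptgs2 with E2, 139.6 of Ptges and 41.5 of Ptgs1.

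COX-2 held most of the cyclooxygenase reads in every library. Ptgs2 made up 82.2% of Ptgs1 and Ptgs2 reads with In-Cl (interval 77.0 to 86.5), 88.6% with DPN (83.8 to 92.3), 88.0% with E2 (83.9 to 91.3), 93.3% in hypoxia (89.6 to 96.0) and 85.1% in the control (78.4 to 90.3). Hypoxia alone was the highest of the 5 and In-Cl the lowest. The Ptgs2 to Ptgs1 ratio with In-Cl was 0.333 of that in hypoxia (log2 -1.59, normal-approximation interval -2.41 to -0.76). With E2 it was 0.535 (-0.90, interval -1.75 to -0.06), and with DPN 0.56 (-0.84, interval -1.74 to 0.06). For hypoxia over control the ratio was 2.46 (log2 1.30, interval 0.36 to 2.24). The Ptgs1 reads number 18 to 48, and they set the width of these intervals. Among the prostaglandin E synthases, Ptges made up 44.4% of Ptges and Ptges2 reads with In-Cl and 42.3% with DPN, against 34.7% in hypoxia; their ratio was higher than in hypoxia by 0.59 with In-Cl (interval 0.18 to 0.996) and 0.46 with DPN (0.05 to 0.87), and lower by -0.20 with E2 (-0.62 to 0.22).

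**Figure D4:**
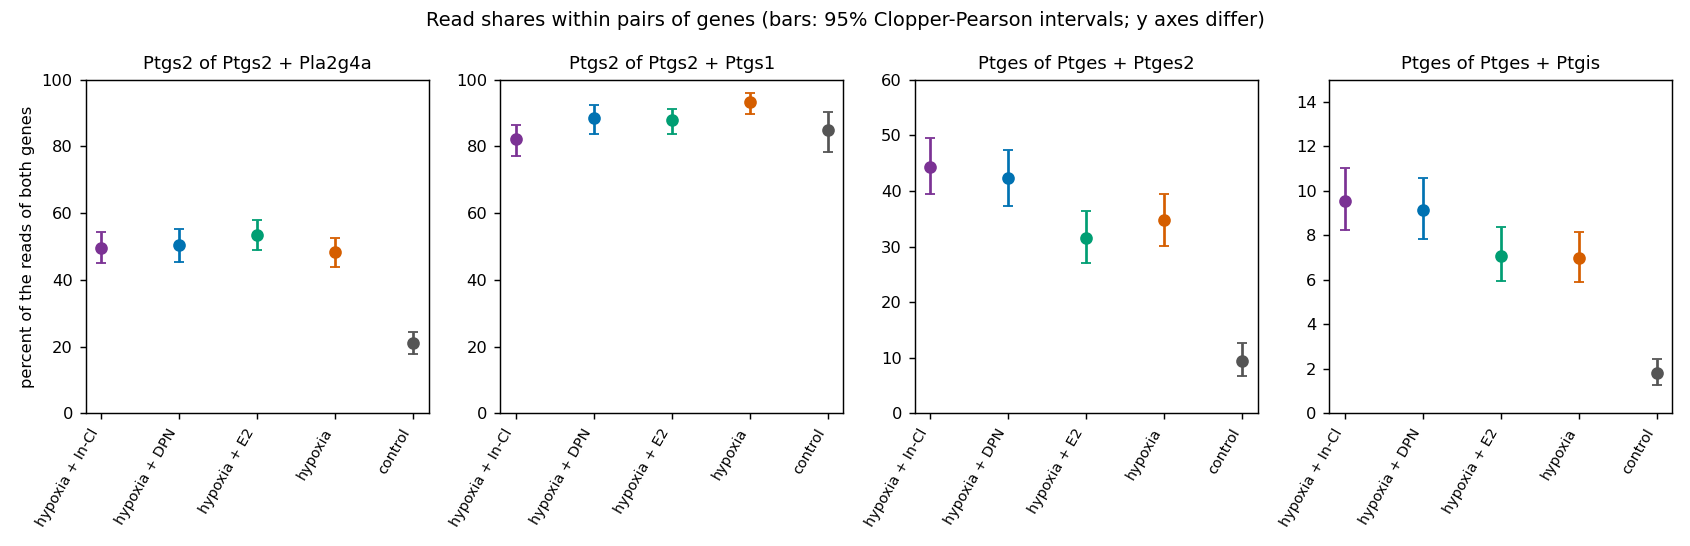
Share of the first gene in the reads of 2 genes (y axis, percent; the axes differ) in each library, with 95% Clopper-Pearson intervals. Ptgs2 makes up 48.3% of Ptgs2 and Pla2g4a reads in hypoxia and 21.0% in the control, and 93.3% of the reads of both cyclooxygenases in hypoxia. Ptges makes up 34.7% of Ptges and Ptges2 reads in hypoxia and 9.36% in the control, and 6.98% of Ptges and Ptgis reads in hypoxia against 1.79% in the control.

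Among 9 prostanoid receptors, 4 had a mean of at least 10. Tbxa2r, the thromboxane receptor, had the most reads, with 455 units with In-Cl, 509 with DPN, 508 with E2, 615 in hypoxia and 354 in the control. Ptger1, a receptor for prostaglandin E2, had 278 with In-Cl, 222 with DPN, 184 with E2, 253 in hypoxia and 241 in the control. Ptger4 (7 to 19 reads) and Ptgfr, the prostaglandin F receptor (6 to 29 reads), were low. The prostacyclin receptor Ptgir had at most 1 read in any library, while the synthase of its ligand, Ptgis, had 1637 to 2079, and Ptger2, Ptgdr and Ptgdr2 were at 0. In hypoxia against control 0 of the 4 were 2-fold higher or lower, beside 4.25% and 1.15% of all symbols, and 0 of so few is near that background. With E2, Ptgfr had 29 reads against 6 in hypoxia (2.19, interval 1.07 to 3.92), 11 with In-Cl and 8 with DPN.

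Of 16 other phospholipases A2 and arachidonate-handling genes 11 had a mean of at least 10, and in hypoxia against control 0 were at least 2-fold higher or lower (median 0.12), again near the 4.25% and 1.15% of all symbols. Mboat7, which puts arachidonate into phosphatidylinositol, had the most reads (1914 units in hypoxia and 2074 in the control). Lpcat3, a lysophospholipid acyltransferase, and Acsl4, which activates arachidonate, were at -0.49 and -0.48 in hypoxia, close to Pla2g4a, while the secreted-type phospholipase Pla2g12a was at 0.68. The secreted phospholipases Pla2g2a, Pla2g5 and Pla2g10 were at 0. Faah, which hydrolyses the arachidonate amide anandamide, was lower with all 3 compounds: 14 reads with In-Cl and 4 each with DPN and E2, against 30 in hypoxia and 26 in the control. Against hypoxia its intervals were -2.19 to -0.20 with In-Cl, -4.83 to -1.36 with DPN and -4.78 to -1.31 with E2, and these 3 comparisons share the hypoxia library.

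Of 10 other synthases, reductases and transporters 9 had a mean of at least 10, and 0 reached 2-fold in any of the 5 comparisons, in which 0.56% to 4.25% of all symbols did in each direction. Cbr1, a carbonyl reductase that acts on prostaglandins, came closest, with 3052 units with In-Cl, 4167 with DPN, 2816 with E2, 5579 in hypoxia and 4320 in the control. Its difference from hypoxia was -0.99 with E2 (interval -1.06 to -0.92) and -0.87 with In-Cl. Akr1b1, an aldose reductase that can also make prostaglandin F, had the most reads, 7413 units in hypoxia and 11105 in the control (-0.58, interval -0.63 to -0.54). Zadh2, a prostaglandin reductase, was higher in hypoxia by 0.90 (interval 0.67 to 1.13) and the prostaglandin transporter Slco2a1 by 0.57 (0.29 to 0.85). In the lipoxygenase arm, which uses the same arachidonate, 3 of 9 genes had a mean of at least 10, with Lta4h highest; Alox5ap and Alox15 were at 0 and Alox5 had at most 2 reads. Of 15 regulators of Ptgs2 RNA 13 had a mean of at least 10, and 0 were at least 2-fold higher or lower in hypoxia (median -0.03), beside 4.25% and 1.15% of all symbols. Hnrnpd, which binds AU-rich RNA, was the highest of them and differed by -0.06. Some differed by less than 2-fold with intervals that excluded 0. Tnf (0.57), Il6 (0.45), Cebpb (0.415) and Zfp36l2 (0.24) were higher in hypoxia than in the control, and Nfkb1 (-0.33), Hif1a (-0.29) and Egr1 were lower. The transcription factor Egr1 had 88.0 units in hypoxia and 174 in the control (-0.98), with 195 under In-Cl and 177 under DPN, which is 1.14 and 0.999 above hypoxia; with E2 it had 107 (0.28, interval -0.15 to 0.72). The cytokines Tnf and Il6 were lower with In-Cl than with DPN, by -0.48 and -0.58.

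**Figure D5:**
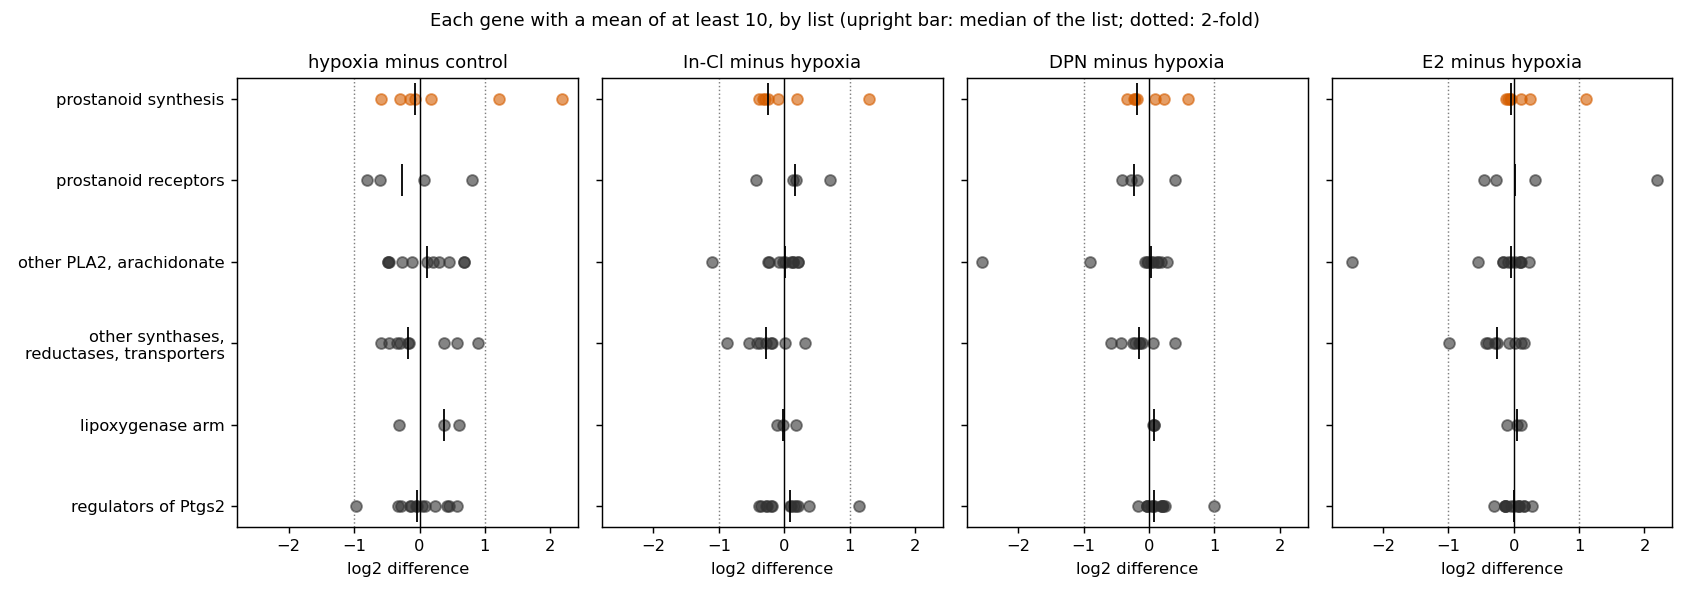
Log2 differences (x axis) of every gene with a mean of at least 10 in the prostanoid synthesis list (orange) and in 5 related lists (grey), in 4 comparisons of single libraries; upright bars are list medians and dotted lines mark 2-fold. In hypoxia against control Ptges and Ptgs2 are the points beyond 2-fold, and with E2 the far point among the receptors is Ptgfr (2.19).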

How the data were processed

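RNA from 5 samples of rat vascular smooth muscle cells, 1 library per condition, was made into stranded SMARTer libraries, per the labels' protocols. Each of the 5 deposited tables gives, for 17048 rows named by gene symbol, expression on a log2 scale as the authors computed it. Per the submitters' processing notes, TopHat and edgeR were used with the rat build rn6; for the counting program, annotation and strand setting no statement was at hand. Undoing log2(x + 1) gave linear values whose low end comes in near-equal steps. The size of 1 read was found for each library from values between 0.5 and 6, and of the values from 0.5 to 2.5 the share within 0.2 read of a whole number was 85.0% in the control, 99.2% with E2 and 100% in the others. Reads are therefore approximate, most of all in the control. In the hypoxia, DPN and E2 libraries a gene with 0 reads can carry a small value above 0.

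For 149 symbols on several rows the row with the highest mean was kept. Counts cover symbols with a mean linear value of at least 10. Shares had been planned per transcript length; no lengths were at hand, so reads were used. The scripts were tested on simulated data. Ptges3 may share reads with near-identical copies: Ptges3l1 held 51 to 80 reads. In the RefSeq table Tbxas1 overlaps Parp12 and LOC120102680, Ptges3 overlaps LOC120093524 and Ptges2 overlaps LOC120101523. Without the strand setting, reads from overlapping genes cannot be told apart. Promoter stretches are from RefSeq (GRCr8). The members, lists and rules for named genes (every member; in each pathway list the highest gene and those past 2-fold; the 5 genes most like Ptgs2 and Ptges; other genes were named after their values were seen) were chosen with earlier results of these data known. Python 3.11.15, numpy 2.4.6, pandas 2.3.3, scipy 1.17.1 and matplotlib 3.10.9 were used.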

Additional observations from a re-analysis of the deposited data

How the results depend on the processing

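No paired analysis was possible because each condition is 1 library. Of 231 single member differences recomputed, 218 stayed within their counting interval. Some could not leave it: each member is on 1 row, so summing the rows of a symbol changed nothing. Most of those that left it came with a ligand library in place of hypoxia. Pla2g4a, at -0.589 in hypoxia, was then at -0.913 (In-Cl) and -0.928 (DPN), and Ptgs1 at 1.225 (In-Cl) and 1.035 (E2). Ptgs2 and Ptges stayed within theirs. Giving the libraries equal totals shifts hypoxia against control by -0.14 for every gene; Ptgis then stood at 0.03 and Ptges3 at -0.43. With In-Cl or DPN in place of hypoxia, Ptgis lay below the control (-0.118 and -0.013).

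The count of members at least 2-fold higher in hypoxia was 2; it was 1 with DPN in its place, where Ptgs2 was at 0.99, 2 with In-Cl, where Ptgs2 (0.97) dropped out and Ptgs1 (1.23) came in, 3 with E2 (Ptgs1, Ptgs2 and Ptges), 3 with no filter on low values, which adds Tbxas1, and 0 in the upper 50% of detected symbols, which holds neither gene. The count higher with In-Cl was 1, and it was 0 in that upper 50% and 2 with no filter on low values, which adds Hpgd; with E2 these counts were 1, 0 and 2, and a pseudocount of 10 gave 0. With DPN the count was 0, and it was 1 with no filter. With no filter 1 member, Tbxas1, was 2-fold lower with In-Cl (main count 0). At 1.5-fold, 1 was lower in hypoxia (main 0), 1 higher with DPN (main 0) and 1 higher with In-Cl than with DPN (main 0). Over all symbols, hypoxia had 455 higher and 123 lower. No filter gave 1180 and 435, the upper 50% gave 123 and 15, and 1.5-fold gave 1000 and 645. The lower count was 207 with equal totals, 186 with quantile normalization and 72 with a pseudocount of 10. The ligand comparisons, with 60 to 115 called each way, moved with the same filters (0 to 9 in the upper 50%, 475 to 645 with no filter). Shares per transcript length and with coding length were not run, since no lengths were at hand. The 18 to 48 reads of Ptgs1 limit what can be said of it.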
